A study of Mus musculus with 40 samples.

Results

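The comparison is the interaction of saracatinib with bleomycin in mouse lung: the change with saracatinib in bleomycin-injured lungs minus the change with saracatinib in saline-treated lungs, measured gene by gene. It used 20 of the 40 libraries of the series, 4 groups of 5 mice, and all 18846 genes that passed a filter on low counts. Every mouse was of the strain C57BL/6. The saline vehicle group was given saline into the lung and then vehicle by gavage, and the saline saracatinib group saline and then 20 mg/kg of saracatinib. The bleomycin vehicle group was given 1.5 U/kg of bleomycin by the oropharyngeal route and then vehicle, and the bleomycin saracatinib group bleomycin and then 20 mg/kg of saracatinib. Daily gavage began on day 10, and the left lung was taken for RNA on day 28. The mice's ages were not given in the sources used here. A whole left lung was sequenced, so each value is a mix of all lung cells, and fewer cells of a type cannot be told apart from less RNA per cell.

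Saracatinib is an oral inhibitor of Src family kinases, which pass signals from integrins and growth factor receptors to the cytoskeleton and to transcription. Bleomycin breaks DNA and, once instilled, injures the alveolar epithelium. During the repair that follows, fibroblasts that normally hold lipid and support alveoli lose that programme, and activated fibroblasts lay down matrix. Epithelial cells pass through a transitional, keratin-rich state. An interaction differs from a plain drug effect, because it subtracts whatever the drug also does to uninjured lung.

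Total counts per library ran from 8.81 to 17.3 M, where M stands for megacounts. Lung markers were present in every library, with the surfactant gene Sftpc at 1155 CPM (counts scaled to a common library total) or more, the type 1 cell gene Ager at 232 or more and the endothelial gene Pecam1 at 352 or more. Marco, a marker of alveolar macrophages, was lowest at 0.386 CPM. The libraries at the greatest distance from the rest of their groups were number 3 of bleomycin vehicle and number 5 of saline saracatinib. On principal component 1, which held 48.4% of the variance, bleomycin vehicle libraries 2 and 3 were at 63.6 and 89.7 and the other 3 of that group between 39.1 and 45.2.

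The genes with the most positive interactions included the transporter gene Slc7a10, the acetylcholinesterase anchor gene Colq and the adrenergic receptor gene Adra1a, and 9 of 20 alveolar fibroblast genes were called positive. The most negative included the hyaluronan synthase gene Has2, the activin antagonist gene Fst, the claudin gene Cldn4, the replication gene Gins2 and the fibroblast gene Cthrc1. In edgeR's quasi-likelihood test, 199 of 18846 genes (1.06%) had an interaction at an adjusted p under 0.05. Of these, 115 (0.610%) were positive, meaning that saracatinib moved the gene further upward in bleomycin lungs than in saline lungs, and 84 (0.446%) were negative. By comparison, 2643 genes (14.0%) were called for saracatinib in bleomycin lungs and 1 gene (0.00531%) for saracatinib in saline lungs. Without adjustment, 3449 genes had p under 0.05 for the interaction and 1401 for saracatinib in saline lungs. The lowest adjusted p was 0.00169, and 151 of the 199 lay between 0.03 and 0.05, close to the threshold. With each library left out in turn, the number of calls ran from 35, without bleomycin vehicle library 2, to 583, without bleomycin saracatinib library 1. In 16 of those 20 fits the number differed from 199 by more than 1.5 times, lower in 14 and higher in 2, and it stayed within that range only without saline saracatinib library 4, bleomycin vehicle library 4 or 5, or bleomycin saracatinib library 4. None of the 199 changed sign in any of them. Without bleomycin vehicle libraries 2 and 3 together, a choice made after seeing the data, only Adamts8 and Slc7a10 of the 199 were called.

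**Figure D1:**
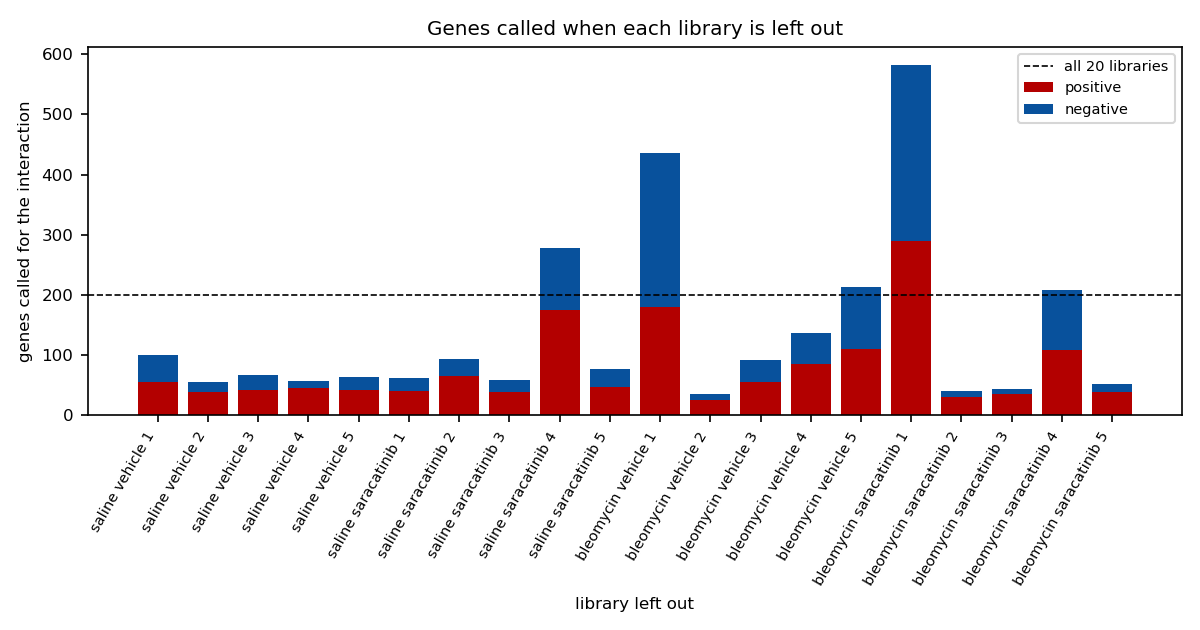
Number of genes called for the interaction when each of the 20 libraries is left out in turn (bars, positive and negative stacked), with the 199 calls of all 20 libraries as a dashed line. Counts run from 35 to 583, and most bars stand below the line.

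The 199 genes shared a shape. Of the 115 positive genes, 113 had their lowest group mean in bleomycin vehicle lungs, and of the 84 negative genes 81 had their highest there, against 39.8% and 35.5% of all genes tested. In all 5 bleomycin vehicle libraries, 70 of the positive genes were below the other 15 libraries and 46 of the negative genes above them, where this held for 424 (2.25%) and 785 (4.17%) of all genes. The median positive gene was 1.38 lower on the log2 scale in bleomycin than in saline lungs under vehicle, and 0.18 lower under saracatinib. The median negative gene was 0.65 higher under vehicle and differed by -0.03 under saracatinib. The call rests on these same libraries, so these counts describe the called genes and test nothing.

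Both terms of the subtraction entered. The median change of the positive genes with saracatinib was 0.81 in bleomycin lungs and -0.31 in saline lungs, with saline values under 0 for 113 of 115 genes. For the negative genes the medians were -0.47 and 0.17, with values above 0 in saline lungs for 80 of 84. On their own, the saline changes of 0 of the 115 and 0 of the 84 genes passed the adjusted threshold. At an unadjusted p under 0.05 there were 55 and 25, against 1401 of all 18846 genes. In bleomycin lungs 108 and 82 passed the adjusted threshold, against 2643 of all genes. A gene whose saline change is opposite has a larger interaction, so the rule itself favours these signs. The drug effects in the 2 kinds of lung share no library and can be set side by side. Of 1001 genes raised by saracatinib in bleomycin lungs, 55.7% were above 0 in saline lungs, against 52.0% of all genes. Of 1642 lowered, 60.5% were below 0 in saline lungs, against 48.0% of all genes. Genes with a larger absolute change in saline than in bleomycin lungs made up 11 of the 115 positive calls (9.57%) and 4 of the 84 negative calls (4.76%), against 6734 of 18846 genes (35.7%).

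**Figure D2:**
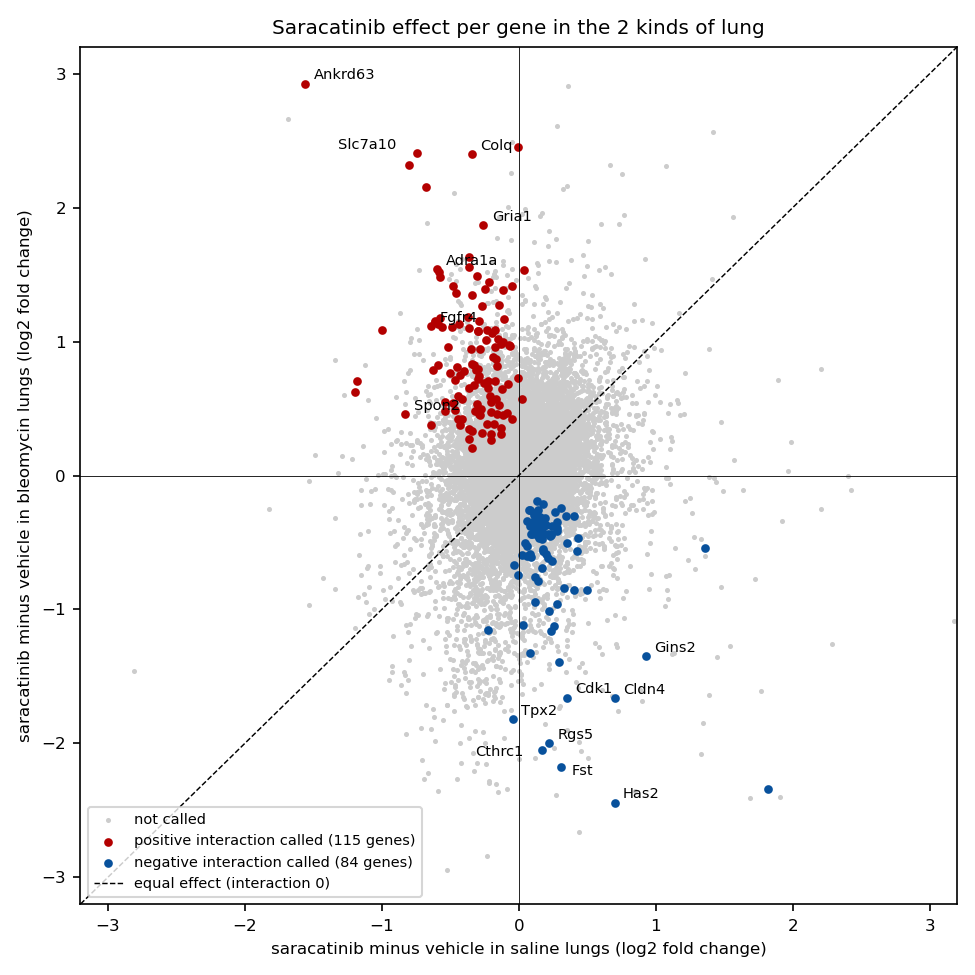
Saracatinib effect per gene in saline lungs (horizontal, log2 fold change) against bleomycin lungs (vertical, log2 fold change), with 3 genes beyond the axes not drawn. Called positive genes (red, 115) lie above the dashed line of equal effects and mostly left of 0, and called negative genes (blue, 84) lie below it and mostly right of 0.

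Genes of alveolar fibroblasts, the lipid-holding fibroblasts of the alveolar wall, made up the list with the largest share of positive calls. Of 20 tested members 9 were called, all positive, 17 were positive at an unadjusted p under 0.05, and the median interaction was 0.89, against -0.00 over all genes. In the fits with 1 library left out, between 3 and 14 members were called and the median stayed between 0.77 and 0.99. The list's mean log2 CPM was 7.27 ± 0.13 (SD, n = 5) in saline vehicle, 6.89 ± 0.31 in saline saracatinib, 6.08 ± 0.20 in bleomycin vehicle and 6.72 ± 0.15 in bleomycin saracatinib lungs. All these lists were written with earlier results of these data known, so their counts are no independent support. Of all 18846 genes tested, 115 (0.610%) were called positive and 84 (0.446%) negative. At an unadjusted p under 0.05 in edgeR's test, 1561 of them were positive and 1888 negative. The counts of this and the later lists stand beside these.

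Slc7a10, a small neutral amino acid transporter, had the largest interaction of the list. It lies on chromosome 7 from 35186385 to 35201114 of GRCm38. Its CPM was 78.2, 75.5, 74.6, 76.6 and 119 in the 5 saline vehicle libraries and 43.3, 57.1, 45.6, 66.2 and 41.1 with saline and saracatinib. In bleomycin lungs it was 9.49, 2.69, 1.46, 5.30 and 4.09 with vehicle and 15.8, 32.4, 32.5, 17.0 and 22.5 with saracatinib. None of the 4 groups overlapped, and saracatinib lay above vehicle in bleomycin lungs and below vehicle in saline lungs. The drug change was 2.41 in bleomycin and -0.74 in saline lungs on the log2 scale, an interaction of 3.15 ± 0.43 (SE, adjusted p = 0.00423). Saline vehicle library 5 stood above the other 4.

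Fgfr4, a fibroblast growth factor receptor (chromosome 13 from 55152640 to 55168759), had the same pattern. With saline it was at 50.8, 49.5, 46.0, 42.2 and 62.2 CPM under vehicle and 27.1, 40.0, 33.5, 41.3 and 18.5 under saracatinib. With bleomycin it was at 15.5, 8.75, 10.4, 13.3 and 12.9 under vehicle and 22.0, 31.6, 30.9, 20.6 and 26.1 under saracatinib. The drug groups did not overlap in either kind of lung, and the interaction was 1.76 ± 0.27 (SE, adjusted p = 0.0101). Tcf21, a transcription factor that marks these fibroblasts, had 30.8, 22.0, 14.6, 30.6 and 23.9 CPM in bleomycin vehicle and 34.7, 54.0, 42.9, 45.1 and 58.1 in bleomycin saracatinib libraries, which did not overlap, while its saline groups did. Its interaction of 1.29 ± 0.28 (SE, adjusted p = 0.0364) was lost in many of the fits with a library left out, whereas those of Slc7a10 and Fgfr4 were called in all 20.

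Spon2, a secreted matrix protein of the same list, differed in balance, with the larger change in saline lungs. Its CPM was 54.2, 51.7, 47.2, 47.9 and 63.2 with saline and vehicle and 29.4, 36.6, 28.3, 32.6 and 21.5 with saline and saracatinib, which did not overlap. It was 16.7, 14.1, 18.6, 12.8 and 15.7 with bleomycin and vehicle and 19.5, 21.8, 28.9, 19.0 and 17.9 with bleomycin and saracatinib, which did. The changes were -0.83 in saline and 0.46 in bleomycin lungs, the interaction was 1.29 ± 0.20 (SE, adjusted p = 0.0101), and the gene was called without any 1 library. Other called members were the integrin gene Itga8 (0.93), the signalling ligand gene Wnt2 (1.18), Scube2 (1.09), the transporter gene Slc38a5 (1.26) and the lymphatic growth factor gene Vegfd (0.80). The methyltransferase gene Inmt was at 1.48 and was not called.

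**Figure D3:**
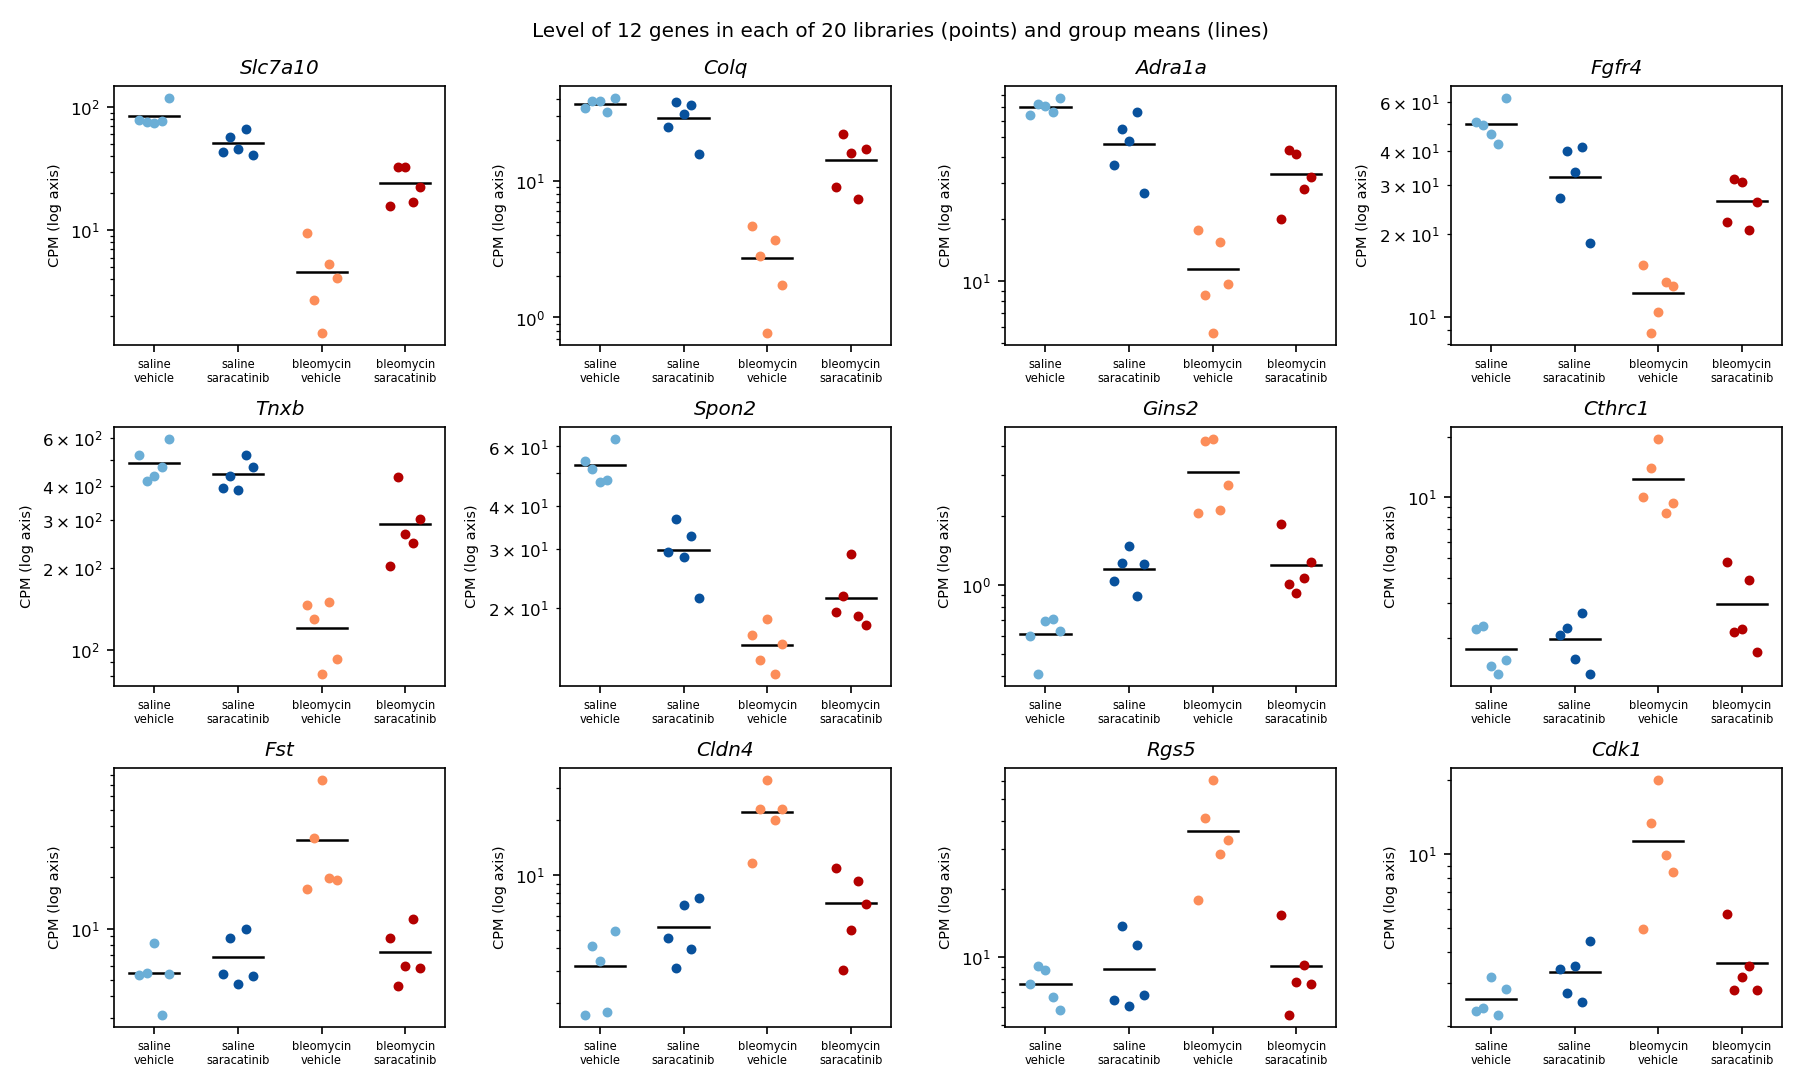
CPM on a log axis of 12 genes in each of the 20 libraries (points) with group means (lines). For Slc7a10, Colq, Adra1a, Fgfr4 and Tnxb the bleomycin vehicle libraries are the lowest, and for Gins2, Cthrc1, Fst, Cldn4 and Rgs5 they are the highest.

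Receptors, channels and enzymes of neurotransmission were among the most positive genes. In the list of glutamate, adrenergic and acetylcholine signalling, 4 of 21 tested members (of 32 listed) were called, all positive, and the median was 0.33. Of the 21, 14 were above 0 and 7 below, down to -1.25, with 7 positive and 1 negative at an unadjusted p under 0.05. Between 2 and 5 were called with 1 library left out. Outside the list, the serotonin receptor gene Htr2a (-1.35) and the potassium channel gene Kcnk1 (-1.17) were called negative, both without any 1 library. Colq, the collagen tail that anchors acetylcholinesterase in the matrix, was at 34.5, 38.3, 38.5, 32.1 and 40.6 CPM with saline and vehicle, at 24.8, 37.6, 30.7, 36.2 and 15.6 with saline and saracatinib and at 4.66, 2.80, 0.770, 3.71 and 1.74 with bleomycin and vehicle. With bleomycin and saracatinib it was at 8.99, 22.1, 15.9, 7.43 and 17.3, above every bleomycin vehicle library. Its interaction was 2.75 ± 0.46 (SE, adjusted p = 0.0101).

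Adra1a, an alpha-1 adrenergic receptor, was at 17.8, 8.58, 5.62, 15.6 and 9.72 CPM with bleomycin and vehicle and at 20.0, 43.4, 41.6, 28.2 and 32.3 with bleomycin and saracatinib, with no overlap. The saline groups overlapped, between 64.4, 72.4, 70.7, 66.5 and 77.9 with vehicle and 36.6, 55.2, 47.9, 66.6 and 26.7 with saracatinib. Its interaction was 2.14 ± 0.37 (SE, adjusted p = 0.013). The beta-3 adrenergic receptor gene Adrb3 (1.46) and the AMPA glutamate receptor gene Gria1 (2.13) were called as well, Adrb3 not without bleomycin vehicle library 2 or bleomycin saracatinib library 2. Further genes with the most positive interactions encode the voltage-gated channels Scn3a (1.76) and Kcna2 (1.89), the GABA receptor subunit Gabrb1 (2.10), the retinol esterifying enzyme Lrat (1.92), the death receptor inhibitor Faim2 (1.82), the AMPA receptor partner Gsg1l (1.80) and the acetyltransferase Nat8f7 (2.05), which has close paralogs and is uncertain for that reason. Of these, Scn3a, Kcna2, Faim2 and Nat8f7 were called without any 1 library. Markers of nerve and glia had 0 of 11 members called in edgeR's test, with 4 at an unadjusted p under 0.05, and a median of -0.37.

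Ankrd63 had the highest interaction, 4.49 ± 0.98 (SE, adjusted p = 0.0364), and the widest spread. In bleomycin saracatinib libraries its CPM was 0.610, 19.4, 0.848, 3.06 and 7.81, against 0.736, 1.14, 0.308, 1.33 and 0.625 with bleomycin and vehicle. These groups overlapped, and 2 libraries were far above the other 3.

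Matrix genes split. Of 41 matrix glycoprotein and hyaluronan genes tested, 3 were called positive and 1 negative, 6 were positive and 13 negative at an unadjusted p under 0.05, and the median was -0.24. Tnxb, tenascin X of loose connective tissue, was at 521, 419, 434, 469.8 and 598 CPM with saline and vehicle and at 393, 437, 386, 521 and 471 with saline and saracatinib, 2 groups that overlapped. In bleomycin lungs it was at 146, 130.0, 81.5, 150.2 and 92.2 with vehicle and 204, 432, 267, 248 and 302 with saracatinib, which did not overlap. Its interaction was 1.42 ± 0.26 (SE, adjusted p = 0.0166), and it was called without any 1 library. The fibulin gene Fbln1 (0.84) and the thrombospondin gene Thbs3 (0.88) were the other positive calls.

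Has2, a hyaluronan synthase, was the negative call of that list and the most negative gene named, at -3.14 ± 0.76 (SE, adjusted p = 0.0476). Its CPM was 2.78, 6.80, 17.6, 2.65 and 5.00 with bleomycin and vehicle and 2.90, 0.577, 0.694, 0.995 and 1.25 with bleomycin and saracatinib, where library 1 of the second group was above 2 libraries of the first. The level was low in saline lungs, at 0.820, 0.819, 1.00, 0.622 and 0.733 with vehicle and 1.77, 0.701, 1.69, 1.07 and 1.34 with saracatinib. It was no longer called in most of the fits with 1 library left out. Collagens and their enzymes had 0 of 36 members called in edgeR's test, with 15 negative and 1 positive at an unadjusted p under 0.05 and a median of -0.41. With 1 library left out, between 0 and 5 of them were called, all negative. DESeq2 called more genes in all, 838 for the interaction. The matrix proteases and inhibitors likewise had 0 of 30 called, 10 negative at an unadjusted p under 0.05 and a median of -0.46. Between 0 and 1 of these were called with 1 library left out.

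Among 24 genes of activated fibroblasts the median interaction was -1.04, 13 were negative at an unadjusted p under 0.05 and 2 were called, both negative. Between 0 and 9 were called with 1 library left out, and 0 without bleomycin vehicle library 2. Cthrc1, a secreted protein of matrix-producing fibroblasts (chromosome 15 from 39076932 to 39087121), was at 2.24, 2.29, 1.47, 1.33 and 1.57 CPM with saline and vehicle and 2.08, 2.26, 1.58, 2.69 and 1.34 with saline and saracatinib. It was at 9.98, 14.0, 19.5, 8.40 and 9.37 with bleomycin and vehicle and 4.80, 2.16, 2.24, 3.90 and 1.72 with bleomycin and saracatinib. The bleomycin groups did not overlap, the saline groups did, and the interaction was -2.21 ± 0.43 (SE, adjusted p = 0.0224). Bleomycin minus saline, the log2 difference was 2.77 under vehicle and 0.56 under saracatinib.

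Fst encodes follistatin, a secreted antagonist of activins. It was at 17.0, 34.0, 75.0, 20.0 and 19.3 CPM with bleomycin and vehicle and 8.76, 4.61, 6.01, 11.3 and 5.86 with bleomycin and saracatinib, with no overlap and with bleomycin vehicle library 3 well above the rest. Saline lungs had 5.37, 5.49, 8.18, 3.11 and 5.44 with vehicle and 5.44, 8.80, 4.74, 9.94 and 5.25 with saracatinib. The interaction was -2.48 ± 0.54 (SE, adjusted p = 0.0368). In the TGF-beta, activin and BMP list, Fst and Chrdl1, an antagonist of BMPs, were called in opposite directions, Chrdl1 at 1.57 ± 0.28 (SE, adjusted p = 0.0141), out of 45 tested with a median of -0.06. Of the other members, the activin chain gene Inhba was at -2.29 and the BMP target Id3 at 1.57, neither called.

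Of the fixed panel of 13 fibrosis and lung genes, Cthrc1 alone was called for the interaction in edgeR's test with all 20 libraries. Col1a1 changed by -1.40 with saracatinib in bleomycin lungs and was at -0.32 in saline lungs, an interaction of -1.08 ± 0.30 (SE, adjusted p = 0.078). Timp1 was at -1.84 ± 0.62 (SE, adjusted p = 0.122) and Fn1 at -1.02 ± 0.36 (SE, adjusted p = 0.139). For Spp1 (-0.88), Col3a1 (-0.38), Acta2 (-0.63), Tgfb1 (-0.34), Src (-0.10), Postn (-0.06), Mmp12 (-0.04), Sftpc (0.08) and Ager (0.16) the interaction was not called either. Col1a1 was, however, called in 2 of the 20 fits with 1 library left out and in 3 of the 10 other settings described below. Timp1 was called in 0 of those 20 fits and in 1 of those 10 settings. The remaining uncalled panel genes were called in none of them. A p above the threshold does not show that the 2 effects were equal: the standard errors were 0.30 for Col1a1, 0.51 for Spp1 and 0.54 for Mmp12.

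Genes of cell division had negative interactions throughout the list of mitosis genes. All 35 tested members were below 0, from -2.04 to -0.33, with a median of -1.19, and 32 were at an unadjusted p under 0.05, but only 3 passed the adjusted threshold, Cdk1, Tpx2 and Kif23. With 1 library left out, between 0 and 16 were called, and 0 without bleomycin vehicle library 2. The mean log2 CPM of the list was 1.98 ± 0.15 in saline vehicle and 1.76 ± 0.17 in saline saracatinib lungs. It was 3.45 ± 0.64 with bleomycin and vehicle and 2.15 ± 0.35 with bleomycin and saracatinib (SD, n = 5). DNA replication genes had a median of -0.46, with 35 of 36 below 0 and 15 at an unadjusted p under 0.05, and 1 was called.

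That gene was Gins2, a subunit of the GINS complex of the replicative helicase (chromosome 8 from 120578633 to 120589304), which passed without any 1 library. Its CPM was 0.597, 0.409, 0.695, 0.711 and 0.628 with saline and vehicle and 1.04, 1.25, 1.47, 0.895 and 1.23 with saline and saracatinib. It was 2.05, 4.23, 4.31, 2.12 and 2.71 with bleomycin and vehicle and 1.83, 1.01, 0.925, 1.07 and 1.25 with bleomycin and saracatinib. Saracatinib was thus above vehicle in saline lungs and below it in bleomycin lungs, with no overlap in either, and the interaction was -2.28 ± 0.38 (SE, adjusted p = 0.0101). Cdk1, the kinase that drives entry into mitosis (chromosome 10 from 69335146 to 69352938), was at 4.99, 13.4, 20.1, 9.90 and 8.47 with bleomycin and vehicle and 5.71, 2.81, 3.16, 3.52 and 2.81 with bleomycin and saracatinib, which overlapped through bleomycin vehicle library 1 and bleomycin saracatinib library 1. In saline lungs it was at 2.31, 2.37, 3.16, 2.22 and 2.83 and 3.42, 2.73, 3.50, 2.51 and 4.42, and its interaction was -2.01 ± 0.42 (SE, adjusted p = 0.0347). The spindle protein gene Tpx2 (-1.77) and the kinesin gene Kif23 (-0.93) were the other calls of the mitosis list. Outside the lists, the securin gene Pttg1, singled out after its values were seen, was called positive at 0.55 (adjusted p = 0.0467). Pttg1 was called in 2 of the 20 fits with 1 library left out. The cyclin gene Ccnd1, which acts in G1 and was singled out after its values were seen, was at 199.9, 245, 247, 232 and 236 with bleomycin and vehicle and 173, 174, 157, 179 and 175 with bleomycin and saracatinib, with no overlap and an interaction of -0.67 ± 0.11 (SE, adjusted p = 0.0101).

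Promoters of mitotic genes are known to carry a cell cycle element, CHR (TTTGAA), beside CCAAT boxes, and they are shown because all 35 mitosis genes had interactions of one sign. In RefSeq promoter windows of 300 bases on GRCm38.p6 (250 before and 50 after the start), searched on both strands, TTTGAA was present in 75.0% of 28 mitosis genes, in 12.5% of 12270 genes tested and in 17.9% of all 32851 windows. CCAAT was present in 75.0%, 38.0% and 37.4%. Cdk1 and Kif23 are the called genes of the mitosis and DNA replication lists with a window in that table, and their stretches are shown for the 2 elements, in capitals. ATTGG is CCAAT read on the other strand.
Cdk1, chr10:69352903-69353012, minus strand: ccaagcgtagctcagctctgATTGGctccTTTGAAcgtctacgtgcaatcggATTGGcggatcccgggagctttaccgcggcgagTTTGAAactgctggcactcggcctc
Kif23, chr9:61946790-61946859, minus strand: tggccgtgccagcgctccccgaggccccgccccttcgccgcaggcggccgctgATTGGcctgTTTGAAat
A match is a description of letters and not of binding. Over the called negative genes, 63 of 84 with a window, TTTGAA was present in 11.1%, near the share of all genes tested.

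Genes of the transitional alveolar epithelium, a state seen when type 2 cells turn into type 1 cells during repair, had a median of -0.64. Of 24 tested, 4 were called, all negative, against 0.446% of all genes. At an unadjusted p under 0.05, 14 were negative, against 1888 of all 18846. With 1 library left out 0 to 5 were called. Cldn4, a tight junction claudin, was at 11.7, 23.0, 33.4, 20.2 and 23.1 CPM with bleomycin and vehicle and 10.9, 3.03, 5.01, 9.34 and 6.95 with bleomycin and saracatinib, with no overlap. It was at 1.72, 4.09, 3.40, 1.78 and 4.92 with saline and vehicle and 4.52, 3.11, 6.89, 3.94 and 7.51 with saline and saracatinib, groups that overlapped. Its interaction was -2.36 ± 0.50 (SE, adjusted p = 0.0357). The keratin genes Krt18 (-0.90) and Krt19 (-0.64) and the clusterin gene Clu (-0.86) were the other calls. Markers of settled type 2 and type 1 cells had 0 of 18 members called each in edgeR's test, with 2 and 1 at an unadjusted p under 0.05, and medians of 0.05 and 0.19.

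**Figure D4:**
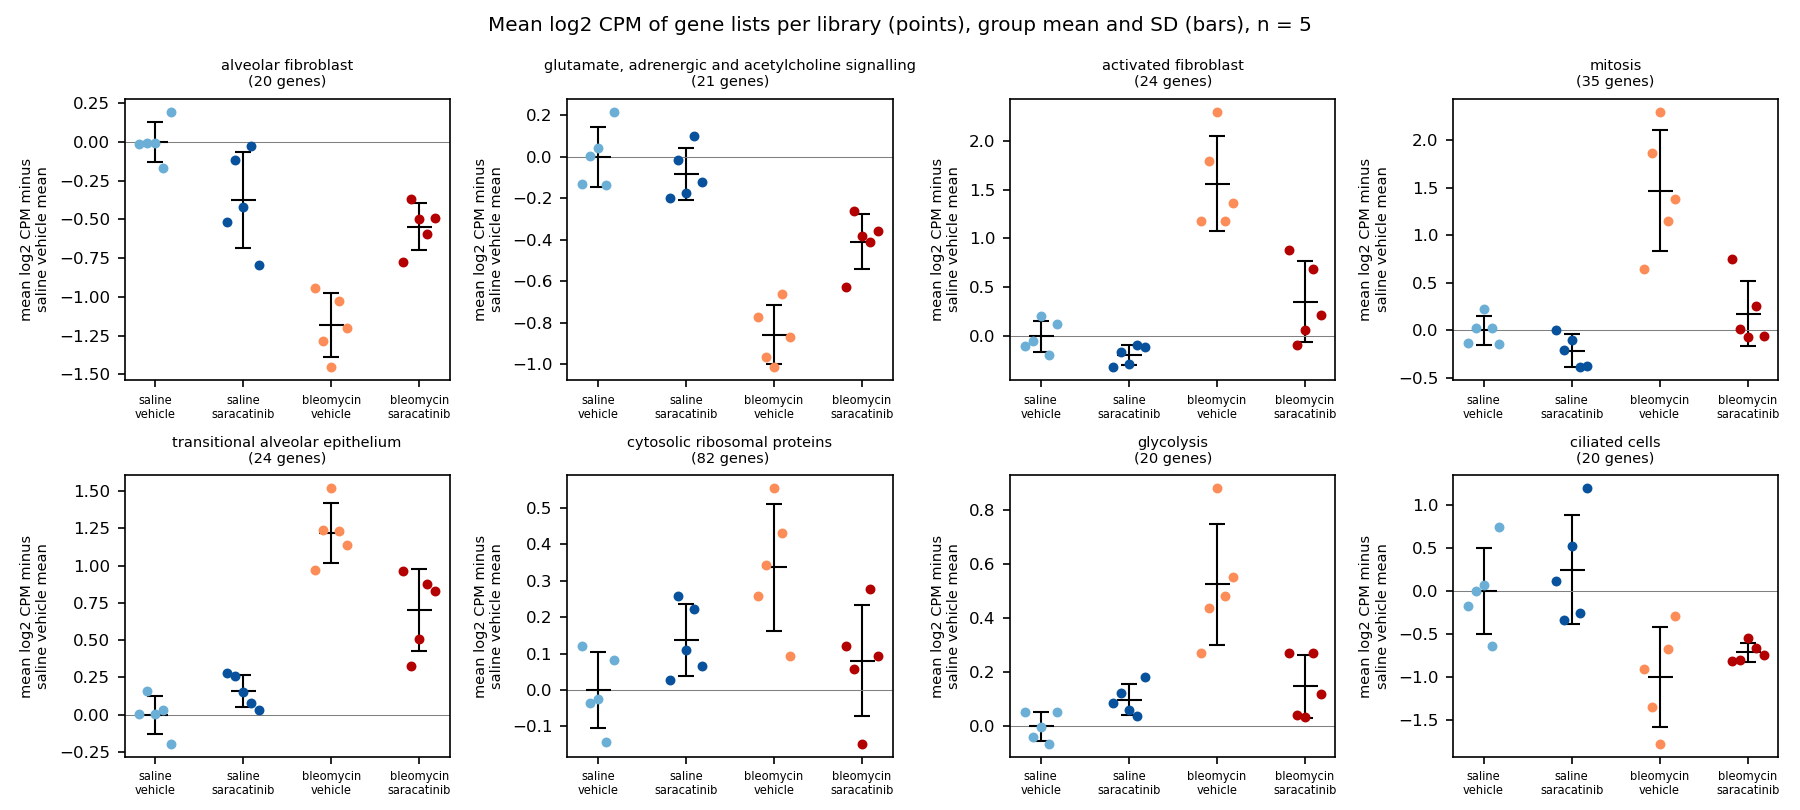
Mean log2 CPM of 8 gene lists in each library relative to the saline vehicle mean (points), with group mean and SD (bars, n = 5). Alveolar fibroblast and neurotransmission lists are lowest in bleomycin vehicle libraries and the activated fibroblast and transitional lists highest, while in the mitosis list bleomycin saracatinib library 1 is above bleomycin vehicle library 1 (mean log2 CPM of 2.72 and 2.63 before the saline vehicle mean is subtracted).

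In some called genes the larger change was in saline lungs. Epha2, an ephrin receptor tyrosine kinase, was at 132, 119, 120.4, 120.2 and 124 CPM with saline and vehicle and 167, 159.7, 149, 169.8 and 169 with saline and saracatinib, which did not overlap. It was at 142, 142, 203, 147 and 162 with bleomycin and vehicle and 145, 110.3, 134, 121 and 133 with bleomycin and saracatinib, which did. The interaction was -0.71 ± 0.13 (SE, adjusted p = 0.0135), called without any 1 library. The vasodilator peptide gene Adm (-0.64 in saline, 0.38 in bleomycin lungs), the cation channel gene Trpc6 (-0.43 and 0.38), the sterol enzyme gene Sc5d (-0.37 and 0.27) and Exoc3l4 (-0.45 and 0.42) were of this kind. Adm, Trpc6 and Sc5d were each called in 5 of the 20 fits with 1 library left out, and Exoc3l4 in 18. Adamts8, a secreted protease singled out for the lowest adjusted p, was at 52.5, 53.9, 53.2, 60.6 and 59.7 CPM with saline and vehicle and 39.3, 45.9, 37.2, 46.5 and 33.5 with saline and saracatinib. It was at 24.1, 26.0, 24.9, 26.2 and 28.0 with bleomycin and vehicle and 33.1, 36.9, 36.2, 39.8 and 35.5 with bleomycin and saracatinib. Neither drug comparison overlapped, the changes were -0.47 in saline and 0.49 in bleomycin lungs, and the interaction was 0.96 ± 0.12 (SE, adjusted p = 0.00169).

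In all, 34 of the 199 genes were called whichever library was left out, 25 positive and 9 negative. In 34 of these 34 the 2 drug changes had opposite signs, against 44.6% of all genes tested. The bleomycin vehicle and bleomycin saracatinib libraries did not overlap in 31, against 1873 of all genes (9.94%), and the saline groups did not in 9, against 264 (1.40%). The 34 were chosen on these same libraries, so these counts describe them and support nothing. They included, chosen after their values were seen, the prostaglandin F receptor gene Ptgfr (1.45), the VIP receptor gene Vipr2 (1.48), the glutamate transporter gene Slc1a2 (1.76), the bone morphogenetic protein gene Bmp3 (1.03) and the serotonin receptor gene Htr2a (-1.35). Of the 34, 26 were also called in each of the 9 other planned settings. Several genes described above were called less regularly. Cthrc1 was called in 17 of 20 fits with 1 library left out, and not without bleomycin vehicle library 2 or bleomycin saracatinib library 2 or 3. Rgs5 was called in 16, Cdk1 in 9, Fst in 8, Cldn4 in 8, Tcf21 in 8, Gria1 in 8, Ankrd63 in 7, Tpx2 in 5 and Has2 in 5 of the 20.

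In each list of other cells in the lung, between 0 and 2 genes were called. Among 31 tissue macrophage genes 1 was called, Cd63 (-0.74), with a median of -0.40. Of 16 alveolar macrophage genes 2 (12.5%) were called, Slc7a2 (-1.24) and Plet1 (-0.93). Negative calls made up 0.446% of all genes tested, 8.57% of mitosis and 8.33% of activated fibroblast genes. With 1 library left out, between 0 and 3 tissue macrophage genes and between 0 and 2 alveolar macrophage genes were called. Capillary endothelium had 0 of 26 called (median 0.25, 5 at an unadjusted p under 0.05), B cells 0 of 18 (0.35, 1) and T and NK cells 0 of 24 (0.10, 2) in edgeR's test. In the pericyte and smooth muscle list Rgs5 (-2.22), a regulator of G protein signalling in pericytes, and Trpc6 (0.81) were called of 24. Erythroid and platelet genes had the lowest median of the 38 lists, -1.26, with 9 of 11 below 0 but 0 called and 0 at an unadjusted p under 0.05 in edgeR's test, and the median ran from -2.13 to -0.44 with 1 library left out. Their mean log2 CPM ran from 0.84 to 3.84 in saline vehicle, 1.39 to 3.66 in saline saracatinib, 1.58 to 3.31 in bleomycin vehicle and 0.78 to 2.15 in bleomycin saracatinib libraries, ranges that overlapped. Club and secretory airway cells had a median of -0.65, with 14 of 18 below 0, 0 called and 3 at an unadjusted p under 0.05 in edgeR's test, and DESeq2 called 0 in both lists. Among 29 Src family and focal adhesion genes 1 was called, the cortactin gene Cttn, a Src substrate, at -0.33 ± 0.08 (SE, adjusted p = 0.0464), and the list's median was -0.10. Cttn was called in 3 of the 20 fits with 1 library left out, where between 0 and 3 genes of the list were called.

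Scores of ciliated cells and of the circadian clock were followed as covariates. The ciliated score, a mean log2 CPM over 17 genes, ran from 5.41 to 6.81 in saline vehicle and 5.73 to 7.29 in saline saracatinib libraries. It ran from 4.27 to 5.69 in bleomycin vehicle and 5.22 to 5.58 in bleomycin saracatinib libraries. The vehicle and saracatinib ranges overlapped in each kind of lung, but all saline saracatinib libraries lay above all bleomycin libraries. Of the separate list of 20 ciliated genes, 0 were called in edgeR's test and 0 were at an unadjusted p under 0.05. The clock score, which sets output genes of the circadian clock (D-box and Rev-erb genes) against Arntl and genes in phase with it as a difference of mean log2 CPM, was -0.88 to -0.18 in saline vehicle and 0.00191 to 0.93 in saline saracatinib libraries, with no overlap, and -0.31 to 1.11 over the bleomycin libraries. With the clock score as a covariate 44 genes were called, 34 positive and 10 negative, and with the ciliated score 852, of which 385 were positive and 467 negative. Of the 199 calls, 39 were among the 44 and 199 among the 852.

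**Figure D5:**
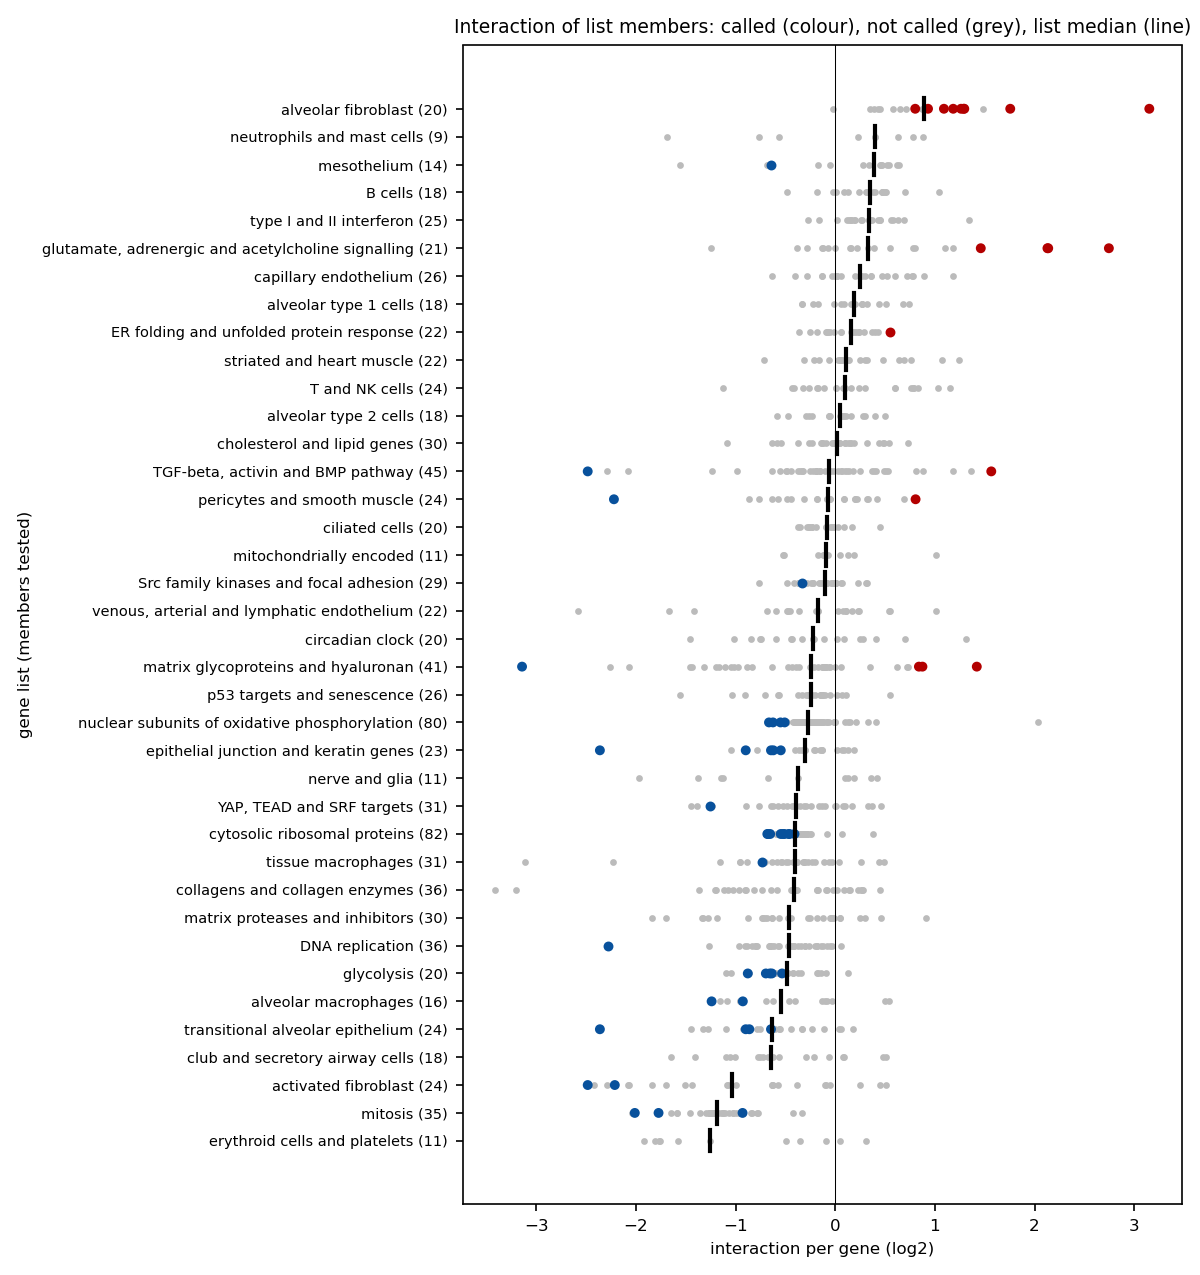
Interaction (log2, horizontal) of each tested member of 38 gene lists (rows, number tested in brackets), with called genes in colour, others in grey and the list median as a line. Red points gather in the alveolar fibroblast and neurotransmission lists, and the mitosis and activated fibroblast medians of -1.19 and -1.04 are among the lowest.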

How the data were processed

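Left lung RNA was depleted of ribosomal RNA and sequenced from stranded libraries, per the labels' protocols. Per the submitters' processing notes, STAR 2.6.1d, Picard, featureCounts of Subread 1.6.3 and edgeR were used, and the builds mm9 and GRCm38 are named. How strand was set in the counting was not given in the sources used here, and overlapping and antisense genes are uncertain for that reason. The deposited values are whole-number counts per gene made by the authors, for 55536 genes, whose identifiers all matched GENCODE M21 on GRCm38. The shorter table of the same model, named as normalized, held 14832 genes with values identical to the counts.

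Genes were filtered with filterByExpr by group, scaled by TMM and tested with edgeR 4.0.16 (R 4.3.3), by the quasi-likelihood test with 1 coefficient per group in a fit of all 20 libraries, with Benjamini-Hochberg adjustment over 18846 genes. Every adjusted p and standard error in the text is edgeR's. CPM uses TMM-scaled totals, and log2 CPM a prior count of 2. Alternatives used limma 3.58.1, DESeq2 1.42.0, other filters, scores as covariates and libraries left out. The script was tested on simulated data. Replicates of a group differed by more than counting noise in each of 40 pairs (chi-square per degree of freedom 4.29 to 52.7), so none was counted as a duplicate. No library held more than 11 counts of Xist, so sex could not serve as a covariate.

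Named genes were the 12 called with the most negative and most positive interactions, with at least 1 CPM and no predicted or immune receptor segment name, up to 4 called members of each list, a fixed panel of fibrosis genes, and the 6 largest calls with a larger effect in saline lungs. The question, lists and rules were chosen with earlier results of these data known. Lists are described by counts and medians and have no test. Each mouse is 1 library, and the numbers that begin the mice's labels run in separate ranges per group, so whatever follows them cannot be told apart from the groups.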

Additional observations from a re-analysis of the deposited data

Results flagged for a closer look

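Each of the 199 called genes had an adjusted p under 0.05 in the test of the difference itself, edgeR's quasi-likelihood test of the interaction. Of these, 30 are given here, the 12 most negative and 12 most positive named genes and the 6 with the largest effects among those that changed more in saline lungs. On the negative side these were Has2 (-3.14), Fst (-2.48), Cldn4 (-2.36), Gins2 (-2.28), Rgs5 (-2.22), Cthrc1 (-2.21), Cdk1 (-2.01), Tpx2 (-1.77), the kinesin gene Kif26b (-1.69), the matrix protein genes Ccdc80 (-1.41) and Vwa1 (-1.40), the large neutral amino acid transporter gene Slc7a5 (-1.38) and Epha2 (-0.71). On the positive side were Sc5d (0.64), Trpc6 (0.81), Exoc3l4 (0.87), Adm (1.02), Spon2 (1.29), Scn3a (1.76), Gsg1l (1.80), Faim2 (1.82), Kcna2 (1.89), Lrat (1.92), Nat8f7 (2.05), Gabrb1 (2.10), Gria1 (2.13), Adra1a (2.14), Colq (2.75), Slc7a10 (3.15) and Ankrd63 (4.49).

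Single libraries far from the other 4 of their group were found in 6 of 180 groups looked at, where chance gives about 1 in 20. The gap to the nearest library, as a share of the group's range on the log2 CPM scale, was 0.899 for Slc7a10 in saline vehicle library 5 and 0.716 for Gsg1l in the same library. It was 0.757 for Gsg1l in bleomycin vehicle library 4, 0.726 for Slc7a5 in bleomycin vehicle library 3 and 0.735 for Mmp12 in bleomycin saracatinib library 2. For the clock score it was 0.741, with saline vehicle library 2 the lowest.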

How the results depend on the processing

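The number of interaction calls, 199 (115 positive, 84 negative), was within 1.5 times of that with DESeq2's size factors, with no low-count filter, with only the shorter table's genes and with robust empirical Bayes. It was 838 (366 and 472) with DESeq2, 415 (213 and 202) with limma voom and quality weights, 44 (34 and 10) with the clock score and 852 (385 and 467) with the ciliated score. It was 54 (30 and 24) without bleomycin vehicle library 3 and saline saracatinib library 5, and 2 (2 and 0) without bleomycin vehicle libraries 2 and 3, an alternative added after the data were seen. Leaving out 1 library gave 35 to 583 calls, 25 to 289 positive and 9 to 294 negative. Genes called for saracatinib in bleomycin lungs, 2643, numbered 1661 and 183 without these 2 pairs of libraries, and 1326 to 3120 with 1 library left out. For saline lungs the 1 call became 3 with no low-count filter, 4 with the shorter table, 52 with DESeq2, 9 with voom, 0 with the clock score, 14 with the ciliated score, 3 and 6 without the named pairs of libraries, and 0 to 9 with 1 library left out. No call among the 199 changed sign in any setting that tested it, and 15 of the 199 were not tested with the shorter table's genes. Among the genes of the fixed panel outside these calls, the only others followed across settings, Col1a1 and Timp1 were called in some settings, as given above. The sign turned for Postn, Mmp12, Sftpc and Ager. Postn was at 0.078 with voom, 0.054 with the clock score, 0.034 with the ciliated score and 0.20 without bleomycin vehicle libraries 2 and 3. Mmp12 was at 0.0055 with DESeq2 and 0.13 without those 2 libraries. Sftpc was at -0.059 with voom, -0.00056 with the clock score, -0.15 without bleomycin vehicle library 3 and saline saracatinib library 5 and -0.078 without bleomycin vehicle libraries 2 and 3, and Ager at -0.10 without the first of these pairs. Among the fits with 1 library left out, these ran from -0.15 to 0.066 for Postn, from -0.16 to 0.33 for Mmp12, from -0.073 to 0.22 for Sftpc and from -0.060 to 0.41 for Ager. The causes were not tested. Simulated interactions were recovered in 17.9% of cases at 1.5-fold, 64.2% at 2-fold and 86.4% at 3-fold, so small interactions are mostly missed at 5 mice a group. There were 5 false calls among the unchanged genes of the 18846 simulated. The simulation drew each gene separately, without shifts shared across a library, so its number of false calls need not hold for these data. No paired analysis was possible because the labels give each mouse its own number and the replicate numbers used here follow accession order.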

Other observations

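Lists of housekeeping genes, and 1 list of epithelial junction and keratin genes, had small negative median interactions. These lists were chosen after their values were seen, so they are described and not tested. Of 82 cytosolic ribosomal protein genes, 80 were below 0, 73 were at an unadjusted p under 0.05 and 9 were called, all negative, with a median of -0.40. Of all 18846 genes, 9537 were below 0, 1888 were below 0 at an unadjusted p under 0.05 and 84 (0.446%) were called negative. With 1 library left out, between 0 and 23 of the ribosomal protein genes were called, and the median stayed between -0.46 and -0.34. Rps26 (-0.68), Rpl41 (-0.67), Rps2 (-0.65) and Rack1 (-0.55), a scaffold protein of the small subunit, were the largest named calls. Ribosomal protein genes have many processed pseudogenes, so their counts are uncertain. The medians of the list were -0.26 with saracatinib in bleomycin lungs and 0.15 in saline lungs. Among 20 glycolysis genes 5 were called, all negative, with Eno1 at -0.88, Gapdh at -0.70, Pgk1 at -0.66 and Ldha at -0.64, and between 0 and 9 were called with 1 library left out. Rps26 and Gapdh were each called in 5 of those 20 fits. Nuclear subunits of oxidative phosphorylation had 4 of 80 called, all negative, among them Cox5a (-0.66) and Sdhd (-0.63), with a median of -0.28 and 0 to 5 called with 1 library left out, while the 11 mitochondrially encoded genes had 0 called in edgeR's test, 1 at an unadjusted p under 0.05 and a median of -0.09. Of 23 epithelial junction and keratin genes 5 were called, all negative, with Lsr at -0.62, and between 0 and 6 with 1 library left out. Their median was -0.31, and the lowest was Cldn4 (-2.36), already counted among the transitional epithelium genes.

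Gene length moved with these values, and its part was not tested. Called negative protein-coding genes had a median exonic length of 3323 bases and called positive ones 4842, against 4398.5 over all 14738 tested. In 5 classes of rising length with about equal numbers of genes, the median interaction went from -0.09 in the shortest to 0.01 in the longest, and negative calls numbered 27, 21, 22, 7 and 7.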
